A study of Homo sapiens with 27 samples.

Results

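The data describe 3 libraries of MDA-MB-231 cells in which ZEB1 was targeted by dCas9-KRAB with a gRNA condition called set 1 here. They were compared with 3 libraries of the same line that carried dCas9-KRAB and no gRNA (No gRNA), so 6 of the 27 libraries of the series carry the main comparison. The members were taken by the names of the data columns. The labels of set 1 conflict: its data columns are named for a pool of all 4 gRNAs, its titles for gRNA 4 alone. A further targeted group, set 2, has the opposite conflict, so the gRNA content of either set is not settled. MDA-MB-231 is a human triple negative breast cancer (TNBC) line with mesenchymal features. Cells of No gRNA, set 1 and set 2 carried a lentiviral vector in which the ubiquitin C promoter drives dCas9-KRAB together with puromycin resistance. They were selected with 0.75 µg/mL puromycin from day 4 after transduction. In set 1 and set 2 the same vector also carried gRNAs against the ZEB1 promoter under a U6 promoter. Wild type cells were not transduced. Each of these 4 groups has 3 libraries of 50 bp reads, all from the same sequencing run, with totals between 15461200 and 17288989 estimated counts per library. The labels call the libraries of a group biological replicates and the methods call them individual clones, and the p-values measure the spread between them.

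ZEB1 is a zinc finger and homeobox transcription factor that binds E-boxes, above all CAGGTG and its reverse complement CACCTG, and recruits corepressors to the promoters of epithelial genes. It is a driver of the epithelial-mesenchymal transition (EMT), in which carcinoma cells lose junctions and polarity and gain motility, and it stands in a mutual repression loop with the miR-200 family. dCas9-KRAB is a Cas9 without nuclease activity, fused to the KRAB domain, which brings TRIM28 and the histone methyltransferase SETDB1 to the site chosen by the gRNA.

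The 4 gRNAs designed against ZEB1 are shown because they define the perturbation. Each sequence had 1 exact match on both strands of GRCh38, and the capitals mark the protospacer adjacent motif (PAM) read from the genome after the match.
gRNA 1: gggcggtttgcggcaaccgtGGG
gRNA 2: agaggctctcgctctacggcCGG
gRNA 3: cacctggtttacgacactccCGG
gRNA 4: agcatttagacacaagcgagAGG
gRNA 1 lies on the minus strand at chr10:31319025-31319044, gRNA 2 on the minus strand at chr10:31319067-31319086, gRNA 3 on the minus strand at chr10:31319117-31319136 and gRNA 4 on the plus strand at chr10:31319209-31319228. The canonical start of ZEB1 is at 31319216, and its first base is position 1 with position -1 before it. On this scale the matches run from -191 to -172 (gRNA 1), from -149 to -130 (gRNA 2), from -99 to -80 (gRNA 3) and, across the start, from -7 to 13 (gRNA 4). gRNA 3 itself opens with the E-box letters CACCTG. gRNA 1 and gRNA 2 lie in exons of both ZEB1 and its antisense gene ZEB1-AS1, while gRNA 3 and gRNA 4 lie in an untranslated exon of ZEB1 and inside the gene span of ZEB1-AS1.

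Repression of the target was examined in every library. ZEB1 (ENSG00000148516, chr10:31318495-31529814, plus strand) was at 105.8, 124.5 and 105.8 CPM (counts scaled to the same library total) in the 3 No gRNA libraries and at 4.84, 5.60 and 5.88 CPM in those of set 1. Wild type libraries had 78.2, 69.5 and 73.9 CPM and set 2 libraries 5.09, 3.84 and 5.60 CPM. The set 1 libraries lay below every untargeted library and overlapped those of set 2. The mean fell from 112.0 ± 10.8 to 5.44 ± 0.538 CPM (SD, n = 3), a 20.5-fold lower level (log2 fold change -4.36, 95% interval -4.68 to -4.03, TREAT adjusted p = 1.87e-07). By exact permutation of the 6 libraries the two-sided p was 0.1, the smallest possible with 3 against 3. Set 1 and set 2 differed by 0.18 on the log2 scale (standard error 0.228), which limma's moderated test did not call (adjusted p = 0.528). In bulk libraries fewer cells with a transcript and less transcript per cell cannot be told apart.

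ZEB1-AS1 (ENSG00000237036, chr10:31206278-31320447, minus strand), a long non-coding RNA read from the opposite strand across the targeted promoter, was at 7.43, 8.61 and 5.59 CPM in No gRNA and at 0.218, 0.0907 and 0.675 CPM in set 1, with 1.02, 0.598 and 2.35 CPM in set 2. The groups of set 1 and No gRNA did not overlap, and the highest set 1 library reached the lowest of set 2. It fell by 4.71 on the log2 scale (standard error 0.675, TREAT adjusted p = 0.00816), and the call was lost without set 1 library 1 (adjusted p = 0.0655) or without set 1 library 2 (adjusted p = 0.0554). Against set 2 it was lower by a log2 difference of -2.06 (moderated adjusted p = 0.0394), and TREAT did not call that difference. The counting is not stated to use strand, so reads of ZEB1 and ZEB1-AS1 cannot be told apart where the genes overlap. Of 11 tested genes of a list flanking ZEB1 on chromosome 10, ZEB1-AS1 was the only one called by TREAT. ARHGAP12, a RhoGAP gene, had a log2 fold change of -0.02 (moderated adjusted p = 0.871), and KIF5B, a kinesin heavy chain, rose by 0.23 in the moderated test (adjusted p = 8.88e-04). ZNF438, a zinc finger gene on the other side of ZEB1, fell by 0.62 in the moderated test (adjusted p = 0.00421). Of 13 genes of the KRAB corepressor list, 0 were called by TREAT, while 2 passed the moderated test higher and 4 lower. TRIM28 was at 253.5 ± 6.93 CPM in No gRNA and 235.7 ± 5.56 CPM in set 1 (SD, n = 3, moderated adjusted p = 0.0517).

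Across the transcriptome, TREAT called 231 of 15721 genes tested in set 1 against No gRNA (1.47%), which means that their absolute log2 fold change exceeded 1 at an adjusted p under 0.05. Of these, 173 were higher (1.1% of genes tested) and 58 lower (0.369%). Such genes are referred to as called below. The 173 genes called higher comprised 157 protein-coding genes, 12 long non-coding RNAs and 3 pseudogenes, and the 58 called lower comprised 53 protein-coding genes, 4 long non-coding RNAs and the T cell receptor segment TRAC. Limma's moderated test against 0 passed 5935 genes (37.8%), 3210 higher (20.4%) and 2725 lower (17.3%). The libraries of the groups did not overlap for any of the 231 called genes, beside 48.8% of all genes tested. The plot of fold change by abundance shows that rises reached larger log2 values than falls, and that the largest changes were at low abundance.

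**Figure D1:**
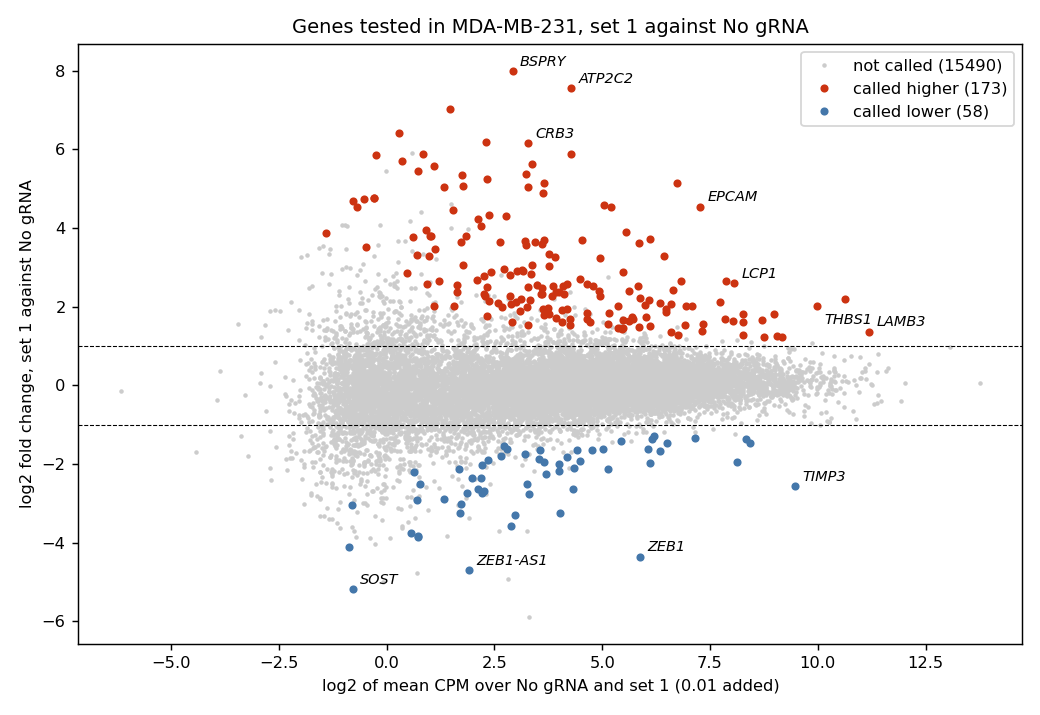
Log2 fold change of set 1 against No gRNA (vertical axis) by log2 of the mean CPM over the 6 libraries with 0.01 added (horizontal axis) for 15721 genes, with 173 genes called higher in red, 58 called lower in blue and dashed lines at log2 fold changes of -1 and 1. The fitted value of BSPRY is highest at 7.98 and that of SOST lowest of the called genes at -5.18, while LAMB3 and TIMP3 stand out at high abundance.

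ZEB1 acts on E-boxes, so the letters CAGGTG and CACCTG, which are each other's reverse complement, were counted on both strands of RefSeq promoters (GRCh38.p14), from 250 bases before to 50 after the start. An entry was matched for 115 of the 173 genes called higher and 39 of the 58 called lower. At least 1 E-box of this kind was in 60 of the 115 (52.2%) and in 10 of the 39 (25.6%), beside 2107 of 11404 tested genes (18.5%) and 5625 of all 27305 promoters (20.6%). At least 2 were in 27 of the 115 (23.5%) and in 1 of the 39 (2.56%), beside 2.6% of tested genes. A match is a description of letters in the window and not a binding site. Windows of up to 30 bases are shown 5′ to 3′ on the strand of the gene for called genes described below, with the E-box in capitals. The number after the name is the position of the first letter of the E-box from the RefSeq start.
CRB3 -208: aggtccccctcaCACCTGcgcgcttccgcg
CRB3 -147: ggggtcccgttaCAGGTGcgcccacagcgc
CRB3 -89: ctcagcgaggctCAGGTGcacaagccggaa
KDF1 -31: ggggcctcggtcCAGGTGcgcggtagcgct
LAD1 -61: gccatgtgatccCACCTGggctggaagggg
LAD1 -35: ggggaggggcgcCAGGTGaggcggcggccg
RAB17 -78: tccggcagcgcgCAGGTGctcccgggtcac
OCLN -33: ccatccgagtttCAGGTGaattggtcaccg
COL4A3 -214: tggatccgcgccCACCTGcccctcaggcgc
DAPP1 -203: gttgtccaatccCAGGTGgggtggttgcct
CRB3 (chromosome 19, window shown first at chr19:6464051-6464080) held 5 E-boxes in 300 bases, RAB17 (chr2:237590795-237590824) and ARHGEF16 held 3, and KDF1 (chr1:26960482-26960511), LAD1 (chr1:201399368-201399397), BSPRY, FAM83E, DSP, DSG2, RNF223 and PRSS1 held 2. OCLN (chr5:69492502-69492531), COL4A3 (chr2:227164398-227164427), DAPP1 (chr4:99816612-99816641), LAMB3 and LCP1 held 1. AREG held 2 as well, and DSC2, UPP1 and PIGR held 1. The promoters of SPINT1, SPINT1-AS1, TC2N, THBS1, INHBA, CCNE1, DUSP1, IL1A, IL11 and IL24 held 0 of these letters in this window. Of described genes called lower, SOST, CMKLR1, S100A4 and FAM20C held 1. TIMP3, PTX3, CD34, ATOH8, ADGRF5, ALDOC, CCL20, ID1, ID3, LIG1, MPP4, NRG2, P3H2, PTGES, SLC1A7 and SLC38A4 held 0. The SOST window is shown in the same way.
SOST -198: ctctctctgggtCACCTGggagtgccagca
It lies at chr17:43758972-43759001 on the minus strand. The promoter of ZEB1 itself held 1, and its RefSeq start lies upstream of the canonical start above.

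Epithelial transcription factors rose in part. Of 13 tested members of a list of 16, 2 were called higher and 0 lower, and 8 passed the moderated test higher and 1 lower, with a median log2 fold change of 0.55 beside -0.01 for all genes. OVOL1, a zinc finger repressor that opposes EMT, had 0 counts in every No gRNA library and 2.02, 2.04 and 0.956 CPM in set 1, at least 9.86-fold higher when No gRNA is set at the floor of 3 counts per library, and it was called (TREAT adjusted p = 0.00132). With OVOL1 at that bound the median of the list is also 0.55. OVOL2 had at most 1.86 counts in a No gRNA library and 1.85, 3.32 and 3.63 CPM in set 1, a ratio of 77.5 (95% counting interval 21.1 to 646), which passed the moderated test (adjusted p = 0.00452) but not TREAT. GRHL2, a grainyhead factor that maintains epithelial identity, was too low to test. It had at most 1.71 counts in a wild type library, at most 2.59 in a No gRNA library and 0 in all 3 set 1 libraries. MIR200CHG, MIR200A, MIR200B and MIR429, transcripts and genes of the miR-200 family, had 0 counts in every No gRNA and set 1 library, and MIR205HG, the host transcript of miR-205, had at most 2.26 counts in No gRNA and 5.05 in set 1, so these 5 were not tested.

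Among 10 splicing regulators, only ESRP1 was called. ESRP1 drives the epithelial pattern of exon inclusion, and its level was 2.27, 4.38 and 2.80 CPM in No gRNA and 74.5, 61.8 and 76.9 CPM in set 1 (log2 fold change 4.53, 23.1-fold, TREAT adjusted p = 1.24e-04). Its paralog ESRP2 was at 1.13 ± 1.06 CPM in No gRNA and 0.899 ± 0.315 CPM in set 1 (SD, n = 3, moderated adjusted p = 0.982). Of the regulators of the mesenchymal pattern, QKI rose by 0.48 in the moderated test (adjusted p = 1.58e-05), and RBFOX2 had a log2 fold change of -0.04 (moderated adjusted p = 0.546).

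Cell junction genes were examined by type of junction. In adherens junctions, 2 of 11 tested members were called higher and 0 lower, with 5 higher and 1 lower in the moderated test. The called members were the cadherins CDH1 and CDH3. CDH1 (E-cadherin) was at 0.196, 0.279 and 1.03 CPM in No gRNA, 19.3, 24.6 and 10.5 CPM in set 1 and 2.79, 5.23 and 1.30 CPM in set 2. The set 1 libraries lay above all others. The log2 fold change was 5.36 (standard error 0.917, TREAT adjusted p = 0.0232). The call was lost without set 1 library 1 (adjusted p = 0.0533) and without each No gRNA library, at adjusted p-values of 0.136, 0.161 and 0.14 for libraries 1, 2 and 3. Set 1 exceeded set 2 by 2.65 on the log2 scale in the moderated test (adjusted p = 8.30e-04), while TREAT gave an adjusted p of 0.0882. CDH3 (P-cadherin), whose gene ends 9824 bases before that of CDH1 on chromosome 16, was at 4.09, 2.96 and 1.42 CPM in No gRNA and at 64.5, 58.5 and 64.6 CPM in set 1. CDH3 was 23.9-fold higher (log2 fold change 4.58) and differed from set 2 by 0.09 (moderated adjusted p = 0.506). Among cytoplasmic partners, JUP (plakoglobin) rose by 1.08 and AFDN (afadin) by 0.57 in the moderated test, while CTNNB1 (beta-catenin) had a log2 fold change of -0.03 and CTNNA1 (alpha-catenin) of 0.09. CDH2 (N-cadherin) was near its detection limit at 0.295 ± 0.184 CPM in No gRNA and 0.203 ± 0.226 CPM in set 1 (SD, n = 3).

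**Figure D2:**
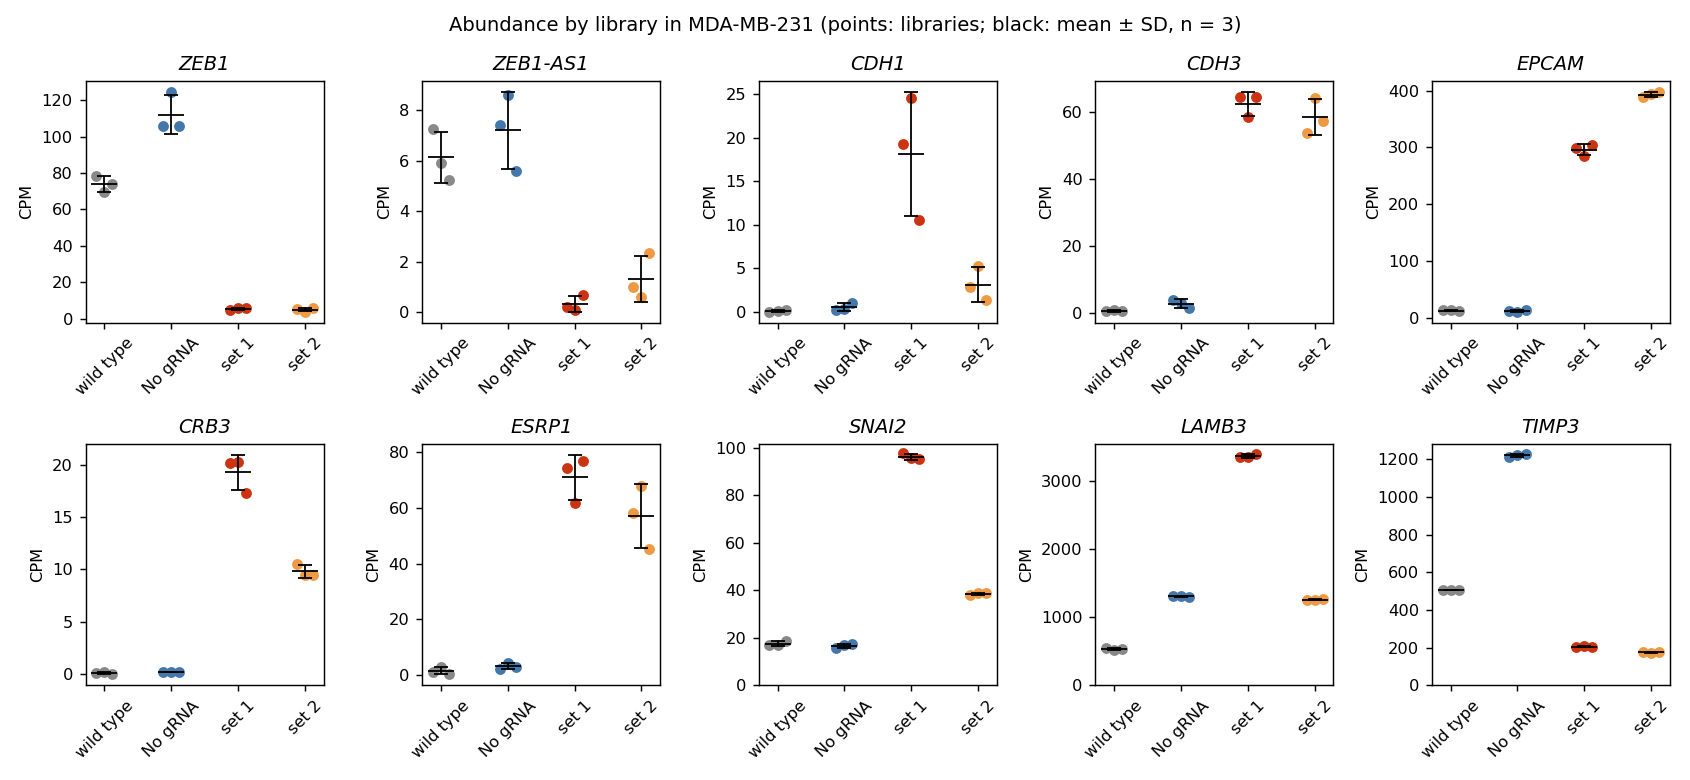
CPM (vertical axis, linear, one scale per gene) of 10 genes in each MDA-MB-231 library by group, with points for libraries and black bars for the mean and SD of 3 libraries. ZEB1 and ZEB1-AS1 sit low in both targeted sets, CDH3, EPCAM and ESRP1 sit high in both, and CDH1, CRB3, SNAI2 and LAMB3 sit higher in set 1 than in set 2.

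In tight junctions, 3 of 15 tested members were called higher and 0 lower, 11 passed the moderated test higher and 1 lower, and the median log2 fold change was 1.01. OCLN (occludin), a sealing protein of the strand, was at 25.9, 24.3 and 21.9 CPM in No gRNA and 79.3, 71.1 and 71.1 CPM in set 1, a 3.08-fold rise (TREAT adjusted p = 8.56e-04). F11R (junctional adhesion molecule A) rose 6.29-fold, to between 398.5 and 417.3 CPM. MARVELD3, a relative of occludin, was at 0.216, 0.590 and 0.09997 CPM in No gRNA and 4.04, 4.70 and 2.57 CPM in set 1 (log2 fold change 3.79), and its call was lost without No gRNA library 1 (adjusted p = 0.0716) or library 3 (adjusted p = 0.0657). The claudins, the pore-forming family, changed less: CLDN4 rose by 1.01 and CLDN7 by 1.13 in the moderated test, while CLDN1 fell by 0.23. CLDN7 was higher in set 1 than in set 2, at 86.2 ± 4.94 and 41.6 ± 5.57 CPM (SD, n = 3, moderated adjusted p = 2.88e-06).

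In desmosomes, which anchor keratin filaments, 4 of 8 tested members were called higher and 0 lower, and 7 passed the moderated test higher. The cadherin DSG2 rose from 312.6, 318.9 and 316.0 to 746.0, 742.2 and 760.5 CPM (log2 fold change 1.25, standard error 0.0224, TREAT adjusted p = 3.51e-05). PKP3, a plakophilin of the desmosomal plaque, rose from 35.1, 39.1 and 36.6 to 162.4, 157.6 and 146.8 CPM (log2 fold change 2.07), and the cadherin DSC2 and the plaque protein DSP were called as well. Values of set 1 and No gRNA were far apart for these genes relative to their spread. Of 5 tested gap junction genes, 1 was called higher and 0 lower, and 4 passed the moderated test higher and 1 lower. The lower gene was GJA1 (connexin 43), a channel protein, which fell by 0.42. Keratins, the filaments that desmosomes hold, had 0 called genes of 10 tested, with 5 higher and 1 lower in the moderated test. KRT18 rose from 382.3 ± 5.25 to 643.1 ± 18.0 CPM and its partner KRT8 was at 268.9 ± 6.97 and 247.1 ± 9.08 CPM (SD, n = 3, moderated adjusted p = 0.0611).

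Polarity and apical trafficking genes had 5 of 16 tested members called higher and 0 lower, with 12 higher in the moderated test and a median log2 fold change of 1.06. CRB3, the transmembrane protein of the apical Crumbs complex, was at 0.236, 0.257 and 0.230 CPM in No gRNA, at 20.2, 20.3 and 17.3 CPM in set 1 and at 10.5, 9.51 and 9.45 CPM in set 2. Its 3 groups did not overlap. CRB3 was 71.5-fold higher than in No gRNA (log2 fold change 6.16, TREAT adjusted p = 1.40e-05) and exceeded set 2 by 0.97 (moderated adjusted p = 9.79e-05). DENND1C, an activator of RAB35, overlaps CRB3 by 14 bases at its end on the other strand and rose from 0.764, 0.768 and 0.783 to 24.02, 22.2 and 25.4 CPM, so reads in the shared bases are uncertain. DENND1C was named after its values were seen. MAL2, a membrane protein of transcytosis, rose 35.2-fold to between 188.3 and 223.2 CPM, and RAB17, a small GTPase of epithelial recycling endosomes, from 2.42 ± 0.465 to 24.6 ± 4.33 CPM. TC2N and the exchange factor ARHGEF16 were called with log2 fold changes of 2.32 and 1.53, and ARHGEF16 was not called in a fit of the compared libraries alone (adjusted p = 0.0586). RAB25, another GTPase of apical recycling, had 0 counts in the No gRNA and set 1 libraries.

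The list around EPCAM had 4 of 9 tested members called higher and 0 lower. EPCAM, an epithelial adhesion molecule, was 23.2-fold higher in set 1, at 299.2, 284.8 and 303.6 CPM, and lower than in set 2 by a log2 difference of -0.41 (moderated adjusted p = 4.29e-06). SPINT1 and SPINT2 inhibit the membrane proteases ST14 (matriptase) and PRSS8. SPINT1 was called and SPINT2 rose by 0.70 in the moderated test, while ST14 was at 0.999 ± 0.420 CPM in No gRNA and 2.12 ± 0.442 CPM in set 1 (SD, n = 3, moderated adjusted p = 0.0123) and PRSS8 was too low to test. PRSS22, a tryptase-like serine protease, rose from 1.44, 2.17 and 0.996 to 8.68, 13.02 and 13.2 CPM (log2 fold change 2.94, TREAT adjusted p = 0.00338). KDF1, which restrains keratinocyte proliferation, had 1 count in total in No gRNA and 263 in set 1, a ratio of 291 (95% counting interval 51.8 to 1.15e+04).

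**Figure D3:**
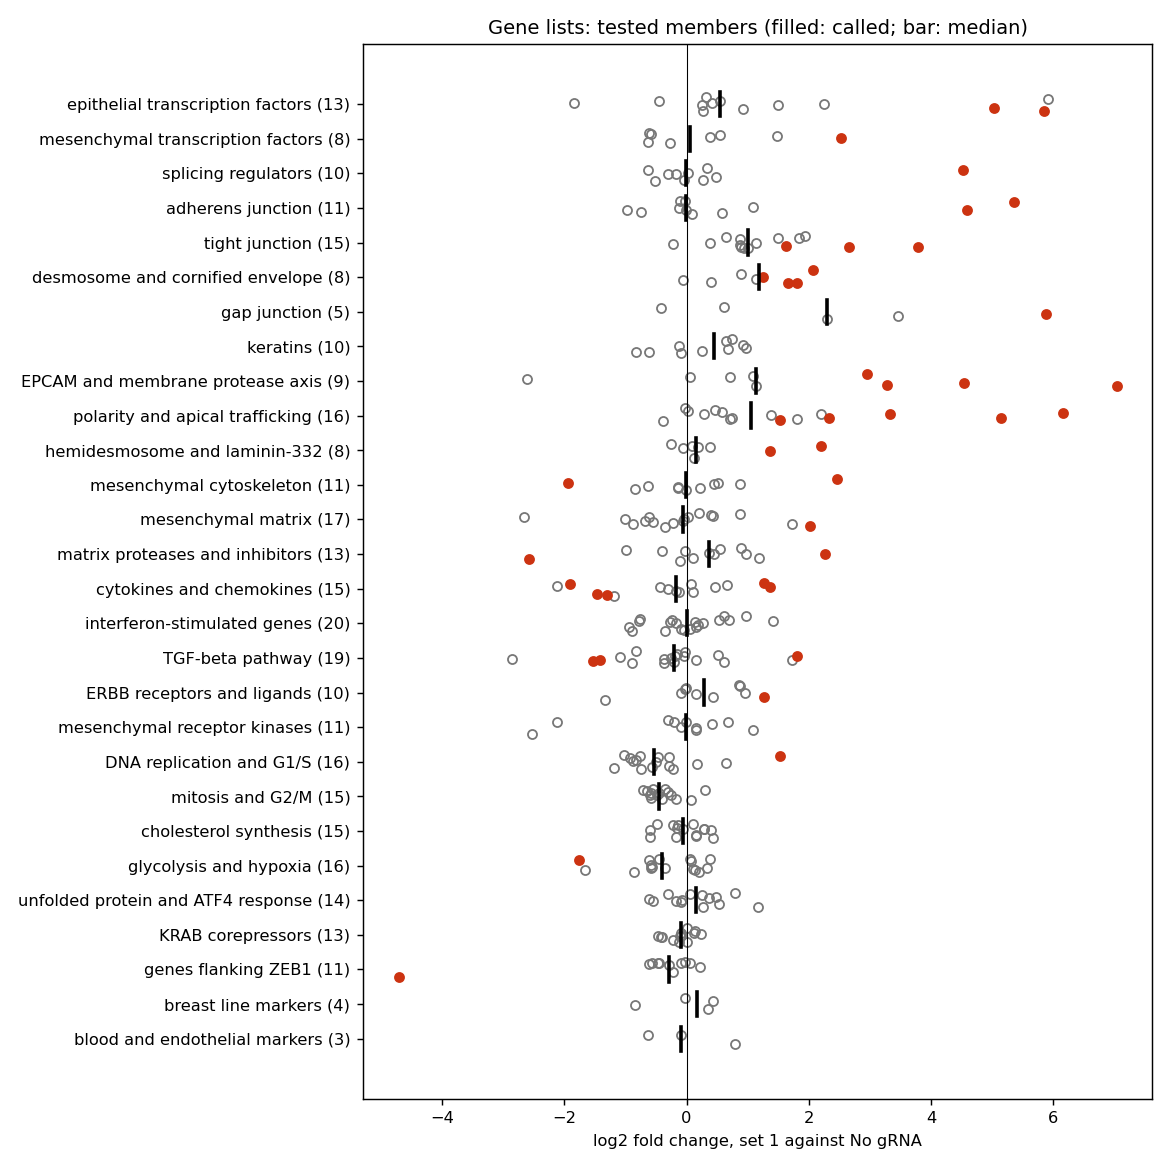
Log2 fold change of set 1 against No gRNA (horizontal axis) for the tested members of each gene list (rows, number tested in parentheses), with called members filled in red, other members as open circles and a black bar at the median of the list. The lists of the EPCAM axis and of polarity reach furthest to the right, with fitted values of 7.03 (KDF1) and 6.16 (CRB3). The bars of the cell cycle lists lie left of 0 at -0.53 and -0.45.

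Other genes with the largest rises came from no single list. BSPRY, a B-box and SPRY domain protein, had 2 counts in total in No gRNA and 15.5, 15.5 and 14.5 CPM in set 1, a ratio of 401 (95% counting interval 111 to 3.32e+03). ATP2C2, a calcium and manganese pump of the secretory pathway, was at 0.166, 0.576 and 0.0451 CPM in No gRNA and 40.0, 40.2 and 35.4 CPM in set 1 (log2 fold change 7.55, TREAT adjusted p = 6.50e-05). LAD1 (ladinin), an anchoring filament protein of the basement membrane, had 0 counts in No gRNA and 3.12, 2.04 and 2.11 CPM in set 1, at least 14.3-fold higher. DAPP1, a phosphoinositide-binding adaptor, rose from 0.407 ± 0.191 to 20.3 ± 1.59 CPM (SD, n = 3). RNF223, a RING finger protein, had a ratio of 65.9 (95% counting interval 17.8 to 550) and PRSS1 (cationic trypsinogen) of 56.9 (95% counting interval 19.1 to 279), and PRSS1 shares sequence with paralogs, so its reads may be split or borrowed. SPINT1-AS1, antisense to SPINT1, rose by 5.34 and shares the uncertainty of strand. These genes moved from at or near 0 to a low but clear level.

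Related genes split within families, which were chosen after their values were seen. The basement membrane collagens COL4A3 and COL4A4 lie head to head on chromosome 2 with 171 bases between them. COL4A3 had 2 counts in total in No gRNA and 3.75, 3.01 and 3.74 CPM in set 1, a ratio of 92.5 (95% counting interval 25.2 to 770). COL4A4 rose from 1.98, 1.81 and 1.87 to 13.03, 14.2 and 15.4 CPM (log2 fold change 2.89, TREAT adjusted p = 8.46e-06). The COL4A3 call was lost without each No gRNA library (adjusted p = 0.0917, 0.0624 and 0.0823 for libraries 1, 2 and 3). COL4A1 and COL4A2, the widely expressed pair, had log2 fold changes of 0.40 and 0.44 and were not called. Of the FAM83 family, scaffolds of casein kinase signalling, FAM83E, FAM83B, FAM83H and FAM83A were called at 5.57, 4.29, 2.31 and 1.84, and FAM83G and FAM83D were not, at 0.55 and -0.54. On chromosome 7 the tetraspanin TSPAN13 and the secretory chaperone AGR2, 7275 bases apart, rose by 2.52 and 2.51.

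Mesenchymal genes did not fall as a group. Of 8 tested mesenchymal transcription factors, 1 was called, and it was higher: SNAI2 (SLUG), itself an inducer of EMT, rose 5.74-fold from 15.8, 16.8 and 17.6 to 97.7, 95.9 and 95.3 CPM. Set 2 stood between, at 38.2, 39.0 and 38.8 CPM, and the difference of set 1 from set 2 was called at 1.32 (TREAT adjusted p = 0.00200). SNAI1 passed the moderated test with a rise of 1.48 (adjusted p = 5.12e-06, TREAT adjusted p = 0.0997). ZEB2, the closest relative of ZEB1, had a log2 fold change of -0.27 (moderated adjusted p = 0.682), and TWIST1 had 0 counts in every library. In the cytoskeleton list, TAGLN (transgelin), an actin-binding protein, was called higher, from 3.48, 4.10 and 3.66 to 21.4, 19.6 and 21.2 CPM, and S100A4, a calcium-binding protein of motile cells, was called lower, from 20.7, 18.3 and 20.4 to 5.40, 5.62 and 4.32 CPM. VIM (vimentin) was at 1348.8, 1337.7 and 1351.3 CPM in set 1 against 2480.5, 2431.3 and 2361.7 CPM in No gRNA, a 1.8-fold lower level that passed the moderated test but not TREAT. Set 1 was lower in VIM than every other MDA-MB-231 group, since set 2 libraries held 2597.7, 2554.6 and 2622.8 CPM and wild type 2663.3, 2642.4 and 2581.7 CPM (moderated adjusted p of set 1 against set 2 = 5.14e-11).

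Of 17 tested genes of the mesenchymal matrix, 1 was called higher and 0 lower, with 6 higher and 5 lower in the moderated test. THBS1 (thrombospondin 1) rose 4.05-fold, from 354.2, 467.8 and 389.3 to 1688.5, 1608.2 and 1585.7 CPM. FN1 (fibronectin) fell by 1.00 in the moderated test, from 1411.5 ± 94.6 to 709.7 ± 99.9 CPM (SD, n = 3), but stood at 241.0 ± 19.9 CPM in wild type, so that set 1 was above wild type by 1.55 (TREAT adjusted p = 0.00834). LOX, a collagen cross-linking oxidase, did likewise, with 500.0 ± 8.21 CPM in No gRNA, 272.2 ± 3.30 CPM in set 1 and 151.4 ± 2.72 CPM in wild type. The direction of both genes therefore depends on the control. LAMB3, a chain of the epithelial basement membrane laminin, rose 2.57-fold from 1317.9, 1310.6 and 1300.2 to 3349.1, 3348.7 and 3402.9 CPM (TREAT adjusted p = 5.70e-08). LAMA3, a further laminin chain, was at 75.8 ± 4.74 and 73.2 ± 4.18 CPM (moderated adjusted p = 0.746), and the receptor subunits ITGA6 and ITGB4 had log2 fold changes of 0.08 and 0.19. LAMB3 was also higher in set 1 than in set 2, by 1.42 (TREAT adjusted p = 7.68e-09).

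Among 13 matrix proteases and inhibitors, MMP9 (gelatinase B) was called higher and TIMP3, a matrix-bound inhibitor of metalloproteinases, was called lower. MMP9 rose from 11.4, 10.1 and 10.2 to 49.5, 53.9 and 49.2 CPM (4.82-fold), while set 2 held 8.95, 8.23 and 8.95 CPM. TIMP3 had the largest loss in CPM of all called genes, from 1210.5, 1223.4 and 1228.3 to 203.6, 207.5 and 205.3 CPM, a 5.94-fold lower level (log2 fold change -2.57, standard error 0.0237, TREAT adjusted p = 6.26e-12). Wild type libraries held 506.3, 508.1 and 504.5 CPM of TIMP3, so set 1 was below both controls. The collagenase MMP1 rose by 0.98 in the moderated test, to between 11135.0 and 11828.9 CPM, and exceeded set 2 by 2.64 (TREAT adjusted p = 8.71e-10). TIMP1 rose by 0.37 in the moderated test, and TIMP2 had a log2 fold change of -0.02 (moderated adjusted p = 0.531).

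Secreted signals moved in both directions. Of 15 tested cytokines and chemokines, 2 were called higher and 3 lower, and the moderated test passed 5 higher and 9 lower. IL1A rose from 190.1, 170.4 and 183.8 to 448.3, 429.7 and 434.3 CPM and IL11 from 92.9, 82.8 and 88.4 to 234.5, 219.1 and 229.9 CPM. CSF1, the macrophage growth factor, fell from 501.6, 498.9 and 509.6 to 184.5, 189.3 and 172.1 CPM, and the chemokine CCL2 from 106.3, 102.0 and 107.1 to 44.3, 42.3 and 41.6 CPM. CCL20 fell from 8.57, 7.80 and 7.62 to 2.81, 1.84 and 1.82 CPM, a call that was lost without No gRNA library 1 (adjusted p = 0.0585), set 1 library 2 (adjusted p = 0.122) or set 1 library 3 (adjusted p = 0.118). Wild type libraries stood at 201.0 ± 14.99 CPM for CSF1 and 1.14 ± 0.0832 CPM for CCL20 (SD, n = 3), and at 80.6 ± 0.872 CPM for CCL2. Against wild type set 1 differed by -0.14 for CSF1, 0.88 for CCL20 and -0.92 for CCL2, and none of these was called.

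In the TGF-beta list, 1 of 19 tested genes was called higher and 2 lower, and the moderated test passed 3 higher and 9 lower. INHBA, the subunit of activin A, rose 3.49-fold from 218.0, 238.1 and 218.6 to 762.8, 788.2 and 801.6 CPM. The BMP target ID1 fell from 69.1, 58.4 and 60.6 to 22.5, 25.3 and 22.5 CPM and ID3 from 10.6, 9.64 and 9.20 to 3.42, 3.24 and 3.42 CPM. The groups of both were clearly apart, yet ID1 lost its call without No gRNA library 1 (adjusted p = 0.0559), set 1 library 1 (adjusted p = 0.134) or set 1 library 3 (adjusted p = 0.137). ID3 lost it when any 1 of the 6 libraries was left out, at adjusted p-values of 0.146, 0.0835 and 0.0569 without No gRNA libraries 1, 2 and 3 and 0.143, 0.205 and 0.159 without those of set 1. The inhibitory SMAD6 was at 6.24 ± 0.969 and 0.932 ± 0.574 CPM (SD, n = 3) and passed the moderated test (adjusted p = 8.83e-04) but not TREAT (adjusted p = 0.0957). Of 10 tested ERBB receptors and ligands, the EGFR ligand AREG (amphiregulin) was called higher, from 68.1, 59.4 and 61.9 to 150.1, 150.5 and 154.5 CPM, and the call was lost without No gRNA library 2 (adjusted p = 0.0968) or library 3 (adjusted p = 0.0687). Of 11 mesenchymal receptor kinases and 20 interferon-stimulated genes, 0 were called in the TREAT test, while limma's moderated test passed 3 and 4 higher and 1 and 5 lower.

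By gain in CPM, a measure that depends on transcript length, the called genes with the largest rises included LAMB3, THBS1, INHBA, DUSP1, DSG2, UPP1 and LCP1. DUSP1, a phosphatase of MAP kinases, rose from 340.1, 331.1 and 358.4 to 824.9, 800.4 and 802.9 CPM, and UPP1 (uridine phosphorylase) from 215.3, 197.4 and 195.3 to 677.2, 613.3 and 615.1 CPM. LCP1 (L-plastin), an actin-bundling protein, rose from 76.1, 76.5 and 76.1 to 462.8, 461.5 and 457.1 CPM (log2 fold change 2.59, TREAT adjusted p = 1.21e-10). No library of set 1 came near the controls for these genes. By loss in CPM, TIMP3 was followed by PTX3 (pentraxin 3), CSF1, ADGRF5, PTGES, ZEB1, P3H2 and FAM20C. PTX3 fell from 464.8, 434.6 and 437.9 to 115.9, 114.4 and 115.5 CPM. The adhesion receptor ADGRF5 fell from 468.0 ± 16.1 to 181.0 ± 7.53 CPM and PTGES (prostaglandin E synthase) from 204.6 ± 6.41 to 81.0 ± 2.39 CPM (SD, n = 3). P3H2, a collagen prolyl hydroxylase, fell from 134.0 ± 2.67 to 48.6 ± 2.85 CPM with wild type at 125.1 ± 4.52 CPM. Wild type held 66.5 ± 0.519 CPM of PTGES, 219.6 ± 18.0 CPM of ADGRF5, 190.2 ± 5.97 CPM of PTX3 and 68.4 ± 13.6 CPM of FAM20C. Against wild type none of these 4 genes was called, with log2 differences of 0.28 for PTGES, -0.28 for ADGRF5, -0.72 for PTX3 and -0.82 for FAM20C. The Golgi kinase FAM20C fell from 122.8 ± 9.61 to 38.5 ± 6.03 CPM, and this call was lost without No gRNA library 1 (adjusted p = 0.0985) or 2 (adjusted p = 0.0787) and without set 1 library 2 (adjusted p = 0.146) or 3 (adjusted p = 0.175).

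Besides ZEB1-AS1 and ZEB1, the named genes with the largest falls in fold were mostly at low abundance. SOST (sclerostin), a WNT antagonist, was at 1.16, 0.791 and 1.48 CPM in No gRNA and had 0 counts in every set 1 library, at least 6.08-fold lower. CD34, a sialomucin of vascular and stem cells, fell from 3.28, 2.78 and 3.20 to 0.234, 0.113 and 0.247 CPM (log2 fold change -3.83, TREAT adjusted p = 4.83e-04), and TRAC, the constant region of the T cell receptor alpha chain, from 3.08 ± 0.242 to 0.188 ± 0.0595 CPM (SD, n = 3). ATOH8, a bHLH factor, fell by 3.75 and PTPRN2-AS1, a non-coding RNA, by 3.59. CMKLR1, the chemerin receptor, fell from 25.8, 31.0 and 30.6 to 4.76, 2.22 and 2.61 CPM, and the NK cell receptor KLRC2 from 5.89 ± 0.204 to 0.703 ± 0.0866 CPM. No marker of blood or endothelium on a separate list was called beside them. Of 8 such markers 3 could be tested, 0 were called and 1 passed the moderated test higher, and PTPRC had at most 5.35 counts and CD3E at most 1.02 in a No gRNA library. Wild type libraries were low for SOST and KLRC2 as well, at 0.120 ± 0.0599 and 1.07 ± 0.167 CPM, and neither was called against wild type. CMKLR1 (log2 difference -1.74, TREAT adjusted p = 0.229), MUC5AC and SLC1A7 were not called against wild type either, and wild type held 10.7 ± 3.83 CPM of CMKLR1. The calls of 5 further genes of this group were lost when single libraries were left out. For SLC1A7 (a glutamate transporter, ratio 16.3, 95% counting interval 5.27 to 81.3, higher in No gRNA) this happened without No gRNA library 1 (adjusted p = 0.0638) or 3 (adjusted p = 0.063) and set 1 library 1 (adjusted p = 0.187) or 3 (adjusted p = 0.18). For the scaffold MPP4 (-3.26) it happened without No gRNA library 1 (adjusted p = 0.0734) or 2 (adjusted p = 0.0689) and set 1 library 2 (adjusted p = 0.213) or 3 (adjusted p = 0.2). For the mucin MUC5AC (ratio 9.75, 95% counting interval 3.93 to 31.2, higher in No gRNA) it happened without No gRNA library 3 (adjusted p = 0.0509) and without set 1 libraries 1, 2 and 3 (adjusted p = 0.09, 0.0942 and 0.0826). For the ligand NRG2 (-2.93) it happened without No gRNA library 2 (adjusted p = 0.0795) or 3 (adjusted p = 0.0822) and without set 1 libraries 1, 2 and 3 (adjusted p = 0.113, 0.162 and 0.165). For the amino acid transporter SLC38A4 (-2.90) it happened without No gRNA library 1 (adjusted p = 0.113) or 3 (adjusted p = 0.102) and without set 1 libraries 1, 2 and 3 (adjusted p = 0.0981, 0.131 and 0.205).

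Growth and stress programmes were examined because they separate the untargeted controls from each other. No gRNA differed from wild type in 566 called genes (3.6% of those tested), 367 of them higher (2.33%) and 199 lower (1.27%). Of 16 DNA replication and G1/S genes, 10 were called lower in No gRNA than in wild type and 0 higher, and of 14 genes of the unfolded protein and ATF4 response 11 were called higher and 0 lower. By list median, set 1 lay on the side of No gRNA and further from wild type on both lists, without overlap between set 1 and No gRNA. Relative to the wild type mean, the median log2(CPM + 1) of the G1/S list was -1.51, -1.47 and -1.40 in No gRNA, -1.93, -1.93 and -1.99 in set 1 and -0.24, -0.23 and -0.10 in set 2. The same measure of the stress list was 2.00, 1.87 and 1.78 in No gRNA, 2.20, 2.13 and 2.14 in set 1 and 0.31, 0.12 and 0.23 in set 2. ASNS (asparagine synthetase), an ATF4 target, showed this at 471.7 ± 12.3 CPM in No gRNA, 563.6 ± 12.9 CPM in set 1, 35.8 ± 1.26 CPM in set 2 and 38.2 ± 3.72 CPM in wild type (SD, n = 3). Members of the stress list went both ways in set 1 against No gRNA. Of its 14 genes 0 were called, and 7 were higher and 5 lower in the moderated test. Within the comparison of set 1 with No gRNA, 13 of 16 G1/S genes and 10 of 15 G2/M genes were lower in the moderated test, with medians of -0.53 and -0.45. The 1 gene of either list called by TREAT was CCNE1 (cyclin E1), and it rose, from 4.68, 4.95 and 5.22 to 14.8, 15.7 and 12.6 CPM. Wild type libraries held 14.5, 13.5 and 15.4 CPM of CCNE1, and its call was lost without No gRNA library 1, 2 or 3 (adjusted p = 0.215, 0.199 and 0.116) and without set 1 library 1 or 2 (adjusted p = 0.151 and 0.175). Of the cholesterol synthesis list 0 of 15 genes were called, with 4 higher and 4 lower in the moderated test, and of the glycolysis and hypoxia list 1 of 16, the aldolase ALDOC, which fell from 14.2 ± 1.05 to 4.17 ± 0.512 CPM with wild type at 3.41 ± 0.0558 CPM.

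**Figure D4:**
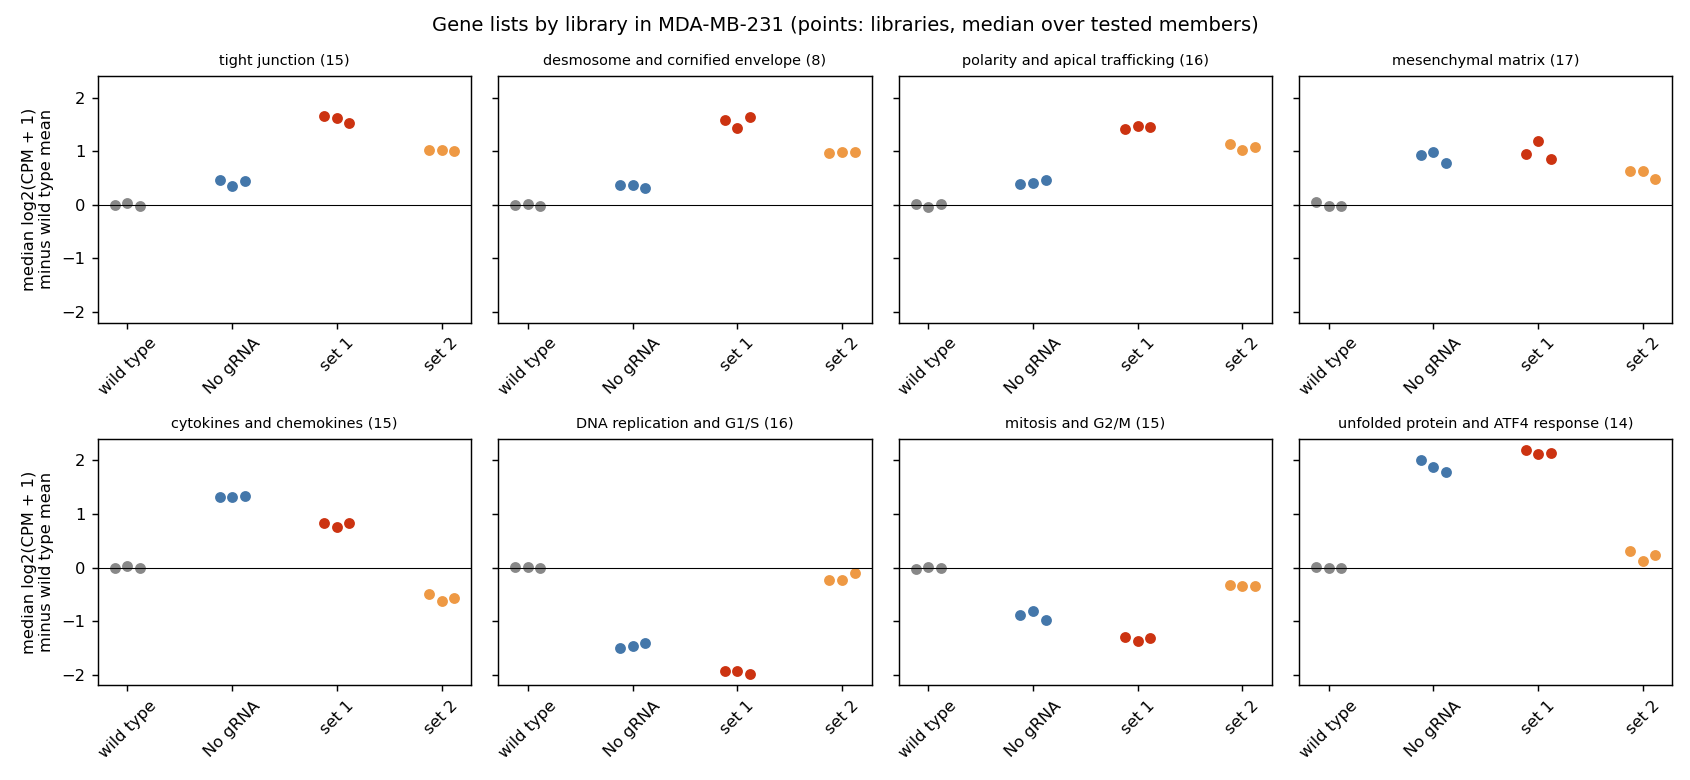
Median log2(CPM + 1) over the tested members of 8 gene lists in each MDA-MB-231 library, minus the wild type mean (vertical axis), with points for libraries by group and the number of members in parentheses. Tight junction, desmosome and polarity lists stand highest in set 1, and on the lists of G1/S, G2/M and the stress response set 1 lies nearer to No gRNA than to wild type and set 2 nearer to wild type.

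The choice of control bore on the size of the change in each of these lists. Against wild type TREAT called 1323 genes (8.42%), of which 793 (5.04%) were higher and 530 (3.37%) lower in set 1. The median log2 fold change of the tight junction list was 1.92 against wild type and 1.01 against No gRNA, that of the desmosome list 1.87 and 1.19, and that of the polarity list 1.71 and 1.06. That of the mesenchymal matrix list was 1.15 and -0.06, and that of the stress list 2.23 and 0.16. In the first 3 of these lists every set 1 library stood above all wild type and No gRNA libraries, at 1.53 to 1.66, 1.44 to 1.64 and 1.41 to 1.47 above the wild type mean. The markers of the line were as labelled in both groups of the comparison, with ESR1 at no more than 3.27 and PGR at no more than 17.3 counts in a No gRNA library and CD44 at 1906.0 ± 33.9 CPM in No gRNA and 2444.0 ± 27.8 CPM in set 1 (SD, n = 3).

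Set 1 was compared with set 2 to see where the targeted groups parted at the same level of ZEB1. TREAT called 483 genes (3.07% of those tested), with 292 higher (1.86%) and 191 lower (1.21%) in set 1, and the moderated test passed 51.5% of genes tested. PIGR, the polymeric immunoglobulin receptor, was at 10.5, 7.70 and 11.1 CPM in set 1, 0.257, 0.0991 and 0 CPM in set 2 and 0.242, 0.329 and 0.142 CPM in No gRNA, and so stood high in set 1 only (log2 difference 6.47, TREAT adjusted p = 1.92e-04). IL24, a cytokine whose gene lies 24383 bases from PIGR on chromosome 1, was at 196.2, 216.9 and 176.2 CPM in set 1, 2.00, 6.44 and 7.86 CPM in set 2 and 45.8, 40.8 and 62.4 CPM in No gRNA. It was called in set 1 both against No gRNA (2.00) and against set 2 (5.40). The potassium channel KCNJ12 and the stromelysin MMP10 differed by 5.49 and 4.86, with No gRNA values of 1.76 ± 0.120 and 6.87 ± 1.59 CPM beside 5.32 ± 0.856 and 15.5 ± 1.64 CPM in set 1 (SD, n = 3). PSG10P, a pseudogene, had 0 counts in set 2 and was at least 5.69-fold higher in set 1, at 1.06 ± 0.225 CPM, with 1.58 ± 0.316 CPM in No gRNA. FAM83E and COL4A3, called above, exceeded set 2 by 3.19 and 3.20, and both differences were called.

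Lower in set 1 than in set 2 were genes of DNA replication. ORC1, of the origin recognition complex, was at 2.89, 2.89 and 2.47 CPM in set 1, 24.4, 23.98 and 23.3 CPM in set 2 and 4.92 ± 0.685 CPM in No gRNA. SKP2, which targets the inhibitor p27 for degradation, was at 8.40 ± 1.83 and 63.5 ± 2.46 CPM in set 1 and set 2, with 15.9 ± 2.86 CPM in No gRNA (SD, n = 3), and the ligase LIG1 was at 10.4 ± 1.13 and 75.1 ± 2.61 CPM, with 32.4 ± 4.39 CPM in No gRNA. LIG1 was also called lower against No gRNA (-1.64, TREAT adjusted p = 0.0235). Of the G1/S list 12 of 16 genes were called lower than in set 2 and 0 higher, and of the stress list 11 of 14 were called higher and 0 lower. MPP4 was lower than in set 2 by -3.81. RHOJ, a small GTPase of endothelium, was lower by -3.45, a call lost without set 1 library 1 (adjusted p = 0.0917) or 3 (adjusted p = 0.0893). ADAT3, a tRNA deaminase subunit, was higher in set 2 at a ratio of 10.3 (95% counting interval 4.49 to 29.2) and lost its call without set 1 library 1, 2 or 3 (adjusted p = 0.108, 0.0943 and 0.0859) and without set 2 library 2 or 3 (adjusted p = 0.064 and 0.0604). LRRC26 and the pseudogene PVRIG2P had 0 counts in set 1 and were at least 3.82-fold and 4.36-fold lower. Of 10 tested keratins, KRT81, KRT86 and KRT15 were called higher than in set 2 by 2.40, 1.81 and 1.63, and KRT8 was called lower by -2.08. The gRNA content of the sets and the state of the growth and stress lists cannot be told apart in this comparison. Across lines, the response of set 1 differed from that of SUM159, a further TNBC line with the same vector, in 114 called genes of 17182 tested (0.663%), among them BSPRY, KDF1, LAD1 and TIMP3.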

How the data were processed

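The authors sequenced single-end reads of 50 bp and deposited estimated counts for each gene, made with Salmon and tximport (lengthScaledTPM, which corrects for transcript length) on GRCh38. The Salmon version and the strandedness of the counting are not given in the sources used here. Groups were taken from the sample labels and set 1 from the data columns.

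The 12 MDA-MB-231 libraries were fitted together in R 4.3.3 with voom from limma 3.58.1, TMM scaling from edgeR 4.0.16 after a filterByExpr filter (minimum count 10) that kept 15721 genes. TREAT tested against an absolute log2 fold change of 1 and limma's moderated test against 0, both two-sided with Benjamini-Hochberg adjustment over all genes tested. voom added 0.5 to each count. CPM values use TMM-scaled totals, and a prior count of 2 was added for permutation tests. The difference between cell lines was fitted over 24 libraries. For edgeR's own tests and DESeq2 1.42.0, counts were rounded. A floor of 3 counts per library was used where no library of a group exceeded it, with exact 95% intervals for ratios of summed counts that cover counting error only. The fits were also tested on simulated data.

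Named genes are ZEB1 and ZEB1-AS1, the 15 called genes that rose most and the 15 that fell most, the 8 with the largest gain and loss in CPM, the 8 highest and lowest against set 2, each with libraries that do not overlap and a mean count of at least 10 in the higher group, and the members of 29 gene lists (387 genes, 333 tested, 33 called higher and 9 lower). Genes with an Ensembl identifier alone were counted but not described, and some other results are not reported here. The members and lists were chosen with earlier results of these data known. Alternatives were other tests, scalings, filters, controls and sets of libraries, sample weights, the replicate number as a block, and each library left out. Replicates correlated at 0.979 to 0.982 within groups, and counts of no pair of libraries agreed within sampling noise (chi-square per degree of freedom of 7.88 or more).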

Additional observations from a re-analysis of the deposited data

Results flagged for a closer look

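The response of MDA-MB-231 set 1 to ZEB1 repression was tested against the response of SUM159, a further TNBC line, in which the mean of the targeted groups (gRNA 4 and All gRNA) was compared with its own No gRNA group. SUM159 cells with the vector were selected with 1.25 µg/mL puromycin against 0.75 µg/mL in MDA-MB-231. Line, sequencing run and puromycin concentration coincide, so they cannot be told apart. TREAT called 114 of 17182 genes (0.663%), 61 with a larger and 53 with a smaller value in MDA-MB-231. Of the 60 genes chosen by rule, 20 were called, which marks them as differing between the lines, and 18 of them are given here. Most of the 60 were picked for a large change in set 1 against No gRNA, which is an arm of this difference. A higher share of calls than among all genes was therefore built into the choice, and the differences may be overstated. All values are log2 differences of the MDA-MB-231 response minus the SUM159 response. LAD1 and OVOL1 had 0 counts in every No gRNA library of MDA-MB-231 and SOST in every set 1 library, and BSPRY, KDF1, RNF223 and PRSS1 in No gRNA and MUC5AC in set 1 stayed under the floor of 3 counts in each library. The values of these 8 genes are fitted ones that depend on the offset added to counts, and they are neither exact nor bounds.

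Among genes that rose in set 1, BSPRY differed by 7.72, KDF1 by 7.03, DAPP1 by 6.47, RNF223 by 6.48, LAD1 by 6.41, ATP2C2 by 6.26, OVOL1 by 5.84 and PRSS1 by 5.35. Their fitted changes in SUM159 were 0.25, -0.02, -0.86, -0.80, -0.02, 1.27, -0.02 and 0.07 in the same order. The floor was applied to MDA-MB-231 groups only, and whether these genes have counts in SUM159 was not tested. PIGR differed by 6.86 (standard error 1.35), and the unnamed gene ENSG00000275234 by 5.27. LCP1 differed by 1.71 and DSG2 by 1.18. Among genes that fell in set 1, MUC5AC differed by -6.31, with -3.06 in MDA-MB-231 and a positive 3.25 in SUM159. SOST differed by -4.66, ATOH8 by -3.18, TIMP3 by -2.67, PTGES by -1.72 and PTX3 by -1.35. TIMP3 had log2 fold changes of -2.59 in MDA-MB-231 and 0.08 in SUM159 (TREAT adjusted p of the difference = 4.74e-17).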

How the results depend on the processing

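The log2 fold change of ZEB1 (-4.36) was called under every alternative tried, between -4.41 and -4.28 without single libraries, and at -3.76 with wild type and -4.06 with both controls averaged. The count of called genes for set 1 against No gRNA (231) moved to 5935 with limma's moderated test against 0, 1124 with an absolute log2 fold change over 1 in addition, 2296 with TREAT at the log2 of 1.2, 5832 with edgeR's quasi-likelihood test, 5951 with DESeq2's Wald test, 1323 with wild type as the control and 466 with both controls averaged. For set 1 against set 2 (483) the same tests gave 8098, 2235, 4790, 8120 and 8031, and edgeR's glmTreat 738. For No gRNA against wild type (566) they gave 8455, 2308, 5083, 8308 and 8174, and for the difference between the lines (114) 3803, 936, 1264, 3733 and 4113. Without single libraries the counts were 194 to 205, 364 to 406, 428 to 488 and 91 to 100. With wild type as the control 4 genes changed sign, PTGES to 0.28, CCL20 to 0.88, CCNE1 to -0.012 and ALDOC to 0.28. Of the values of single named genes under alternatives, 1878 kept their direction and side of the threshold, 123 were no longer called and 4 changed sign. The 1878 include tests less strict than TREAT at 1, in which a call could hardly be lost. These were the tests against 0, the moderated test with a fold filter and TREAT at the log2 of 1.2, each with all 89 values kept.

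Replicate numbers were not treated as pairs, since same-numbered libraries of different groups correlated at -0.052 to 0.04 over 18 pairs. With the replicate number as a block the counts were 217, 458, 535 and 112, ZEB1 was at -4.36, and SLC1A7, SLC38A4, FAM20C, ID3, CCNE1 and 1 gene with an Ensembl identifier alone were no longer called. Library totals or upper quartile scaling removed the calls of AREG and CCNE1, and DESeq2 size factors that of CCNE1. Without the count filter ID3 and CCNE1 were not called. A fit of only the compared libraries removed 14 calls of named genes, those of CDH1, SLC1A7, MPP4, NRG2, SLC38A4, MARVELD3, ARHGEF16, CCL20, ID1, ID3, AREG and CCNE1 against No gRNA and of ADAT3 and an unnamed gene against set 2. DESeq2 with a threshold of 1 removed 6, those of SLC1A7, MUC5AC, CCL20 and ID3 against No gRNA and of PVRIG2P and an unnamed gene against set 2. Besides the 4 sign changes, wild type as the control removed 10, those of SOST, SLC1A7, CMKLR1, MUC5AC, KLRC2, PTX3, CSF1, ADGRF5, FAM20C and CCL2. Both controls averaged removed 11, those of SLC1A7, MUC5AC, KLRC2, CSF1, ADGRF5, PTGES, FAM20C, CCL2, CCL20, CCNE1 and ALDOC. With 3 libraries a group no exact permutation test can go below p = 0.1, and genes near 0 counts in a group have folds known only within wide counting intervals.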
